A study of Homo sapiens with 6 samples.

Results

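The cytosolic heat shock genes described here were the 10 genes HSPA1A, HSPA1B, HSPA8, HSP90AA1, HSP90AB1, HSPH1, HSPB1, DNAJB1, BAG3 and HSF1, taken by symbol from a table of 29845 genes. All 10 had a row in the count table and in the FPKM table (fragments scaled to transcript length and library size). A549 cells, an established human lung epithelial cancer line, had received by lipid transfection either a plasmid with FLAG-tagged TFAM (TFAM-OE) or the empty vector (control), with 3 libraries of polyadenylated RNA in each group. TFAM binds mitochondrial DNA, packages it and acts as a factor in its transcription, and the study asked how its overexpression alters the transcriptome. Both groups had gone through the same transfection, and untransfected cells were not analysed here. Libraries held 32430766, 26650854 and 37321956 counted reads in control replicates 1, 2 and 3, and 33579510, 36958682 and 28735164 in TFAM-OE replicates 1, 2 and 3.

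The transfected gene itself was examined first. TFAM had 76.1, 70.2 and 72.7 CPM (read counts scaled to library size, with TMM factors) in the control libraries and 71.88, 77.25 and 83.04 CPM in those of the other group. The groups overlapped: the log2 difference was 0.085 with a standard error of 0.096 (adjusted p = 0.623 in edgeR's quasi-likelihood test with Benjamini-Hochberg adjustment). The TFAM mRNA count did not show the overexpression that the label states; the study reported FLAG-tagged TFAM protein by western blot, which was not analysed here. In what follows, the second group is written as the libraries labelled TFAM-OE, and every direction below is of those libraries over the control. The labelled cell type was checked against marker genes. The epithelial keratin KRT7 had a mean of 1367 FPKM over the 6 libraries, and KRT8, KRT18 and KRT19 had 695.9, 517.4 and 86.9 FPKM. EPCAM and CDH1, 2 further epithelial markers, had 0.273 and 0.842 FPKM, and the lung lineage markers NKX2-1, SFTPB and SFTPC had at most 6 reads in a library. FOXA2, the most abundant lung lineage marker, had 17.4 FPKM.

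Heat shock proteins are molecular chaperones that bind unfolded or newly made proteins and help them to fold, to be held soluble or to be passed on for degradation. In the cytosol, HSP70 proteins work in cycles of ATP hydrolysis that J-domain proteins start and nucleotide exchange factors complete, and HSP90 proteins receive many signalling proteins from them. Heat and other proteotoxic stress release the transcription factor HSF1, which binds heat shock elements, arrays of the short unit NGAAN in alternating orientation, upstream of inducible chaperone genes, whereas HSPA8 and HSP90AB1 are known for high expression without stress.

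The genes differed far more from each other than between the groups. HSPA8, the constitutive HSP70, was the most abundant at 841 ± 50 FPKM (SD, n = 6 libraries), which ranked 62 among 16554 genes. HSP90AA1, HSPB1 and HSP90AB1 followed at 457 ± 34.2, 425 ± 30.9 and 387 ± 41.9 FPKM. DNAJB1 had 65.9 ± 5.95 FPKM and HSF1 60.1 ± 8.14 FPKM. BAG3, HSPA1A, HSPA1B and HSPH1 closed the order at 47.6, 42.2, 22.3 and 19.4 FPKM. In 3 places of this order the ranges of neighbours were apart in all 6 libraries, between HSPA8 and HSP90AA1, between HSP90AB1 and DNAJB1, where the mean level fell 5.87-fold, and between HSPA1A and HSPA1B. Elsewhere the ranges of neighbours overlapped. HSF1 exceeded BAG3, and BAG3 exceeded HSPA1A, within each of the 6 libraries. HSPB1 exceeded HSP90AB1 and HSPA1B exceeded HSPH1 in 5 of 6 libraries, and HSP90AA1 exceeded HSPB1 and DNAJB1 exceeded HSF1 in 4 of 6. The levels of HSPA1A and HSPA1B are uncertain, because most of the transcript sequence is the same in both.

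**Figure D1:**
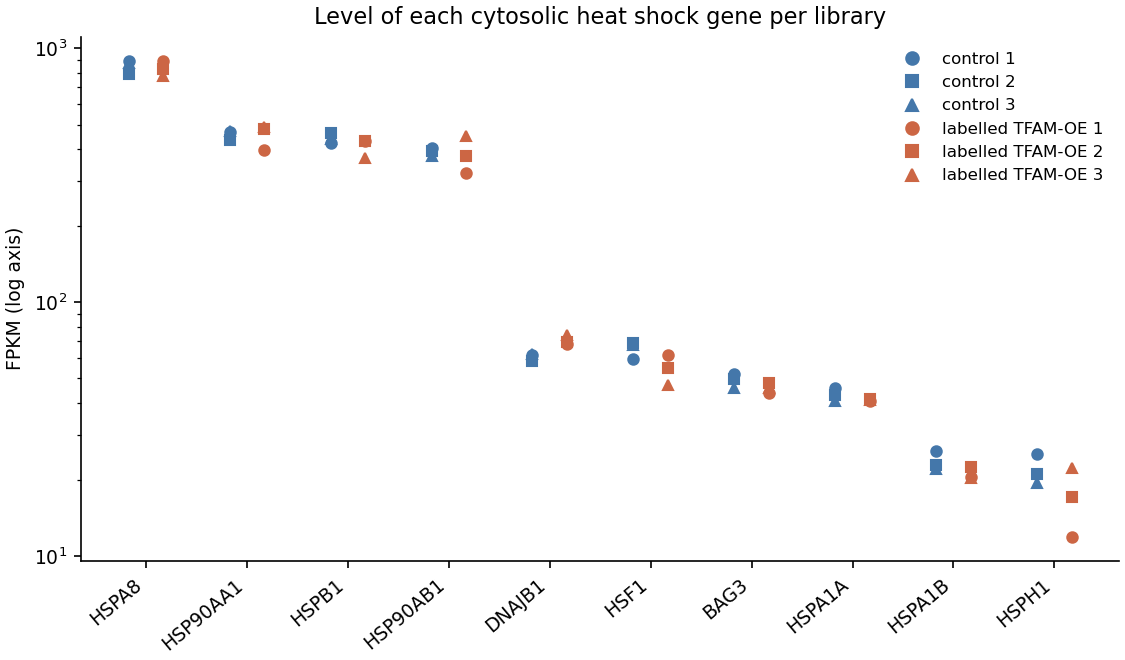
FPKM of the 10 genes on a log axis, with 1 point for each library, ordered by mean level. The 4 most abundant genes sit between 323.4 and 893.2 FPKM, and the other 6 between 11.9 and 74.5 FPKM.

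The reference promoters were read for sequence features that the genes share. RefSeq windows of 250 bases before to 50 bases after a transcription start (GRCh38.p14) were held for 9 of the 10 genes, 14 windows in all, and HSF1 was the gene without one. A pair of heat shock units, GAANNTTC or TTCNNGAA, which each read the same on both strands, was found in a window of 7 genes. That was 57.1% of the 14 windows, where 13.5% of all 35116 windows in the table held such a pair. Arrays of 3 alternating units were found in windows of 3 genes, HSPA8, HSP90AA1 and HSP90AB1 (21.4% of the 14 windows, against 0.49% of all windows), and each array contains the pair. CCAAT on either strand was present for 5 genes, in 50% of their group's 14 windows and in 34.6% of all windows. TATAAA on either strand was present for HSPA1A and HSPA1B, in 14.3% of the 14 windows, near the 11.5% of all windows. Such matches describe letters in the reference and do not show binding.

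The bases from position -130 to -11 are given for 4 windows, those of the 6 with a pair in these bases that overlapped no annotated exon, since they show how alike the heat shock elements of HSPA1A and HSPA1B are and how those of HSP90AA1 and DNAJB1 differ. The other 2, of HSPA8 and HSP90AB1, overlapped exons. The printed stretches lie at chr6:31815413-31815532 (plus strand) for HSPA1A, chr6:31827608-31827727 (plus strand) for HSPA1B, chr14:102087055-102087174 (minus strand) for HSP90AA1 and chr19:14518408-14518527 (minus strand) for DNAJB1. Capitals mark the heat shock units and the bases between them, and each line reads 5′ to 3′ toward the start.
HSPA1A: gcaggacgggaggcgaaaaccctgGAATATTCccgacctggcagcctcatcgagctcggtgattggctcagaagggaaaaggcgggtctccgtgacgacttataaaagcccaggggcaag
HSPA1B: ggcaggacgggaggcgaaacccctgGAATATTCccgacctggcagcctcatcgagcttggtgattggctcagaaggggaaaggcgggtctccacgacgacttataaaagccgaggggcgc
HSP90AA1: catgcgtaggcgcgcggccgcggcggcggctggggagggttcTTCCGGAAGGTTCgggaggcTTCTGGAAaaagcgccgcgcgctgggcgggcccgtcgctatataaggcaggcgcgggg
DNAJB1: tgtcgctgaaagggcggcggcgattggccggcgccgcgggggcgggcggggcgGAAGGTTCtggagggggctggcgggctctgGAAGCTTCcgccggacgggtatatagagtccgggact

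The stretches of HSPA1A and HSPA1B were identical at 111 of 121 aligned positions (91.7%), with the pair of units starting at positions -106 and -105 from the start. HSPA8 held an array of 3 units at positions -55 to -43 and another at -230 to -218. HSP90AB1 held arrays of 3 units at positions -165 to -153 and -112 to -100, in the last of its 3 windows. HSPB1 had 1 pair, starting at position -182. The windows of HSPH1 and BAG3 held none of the motifs searched.

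**Figure D2:**
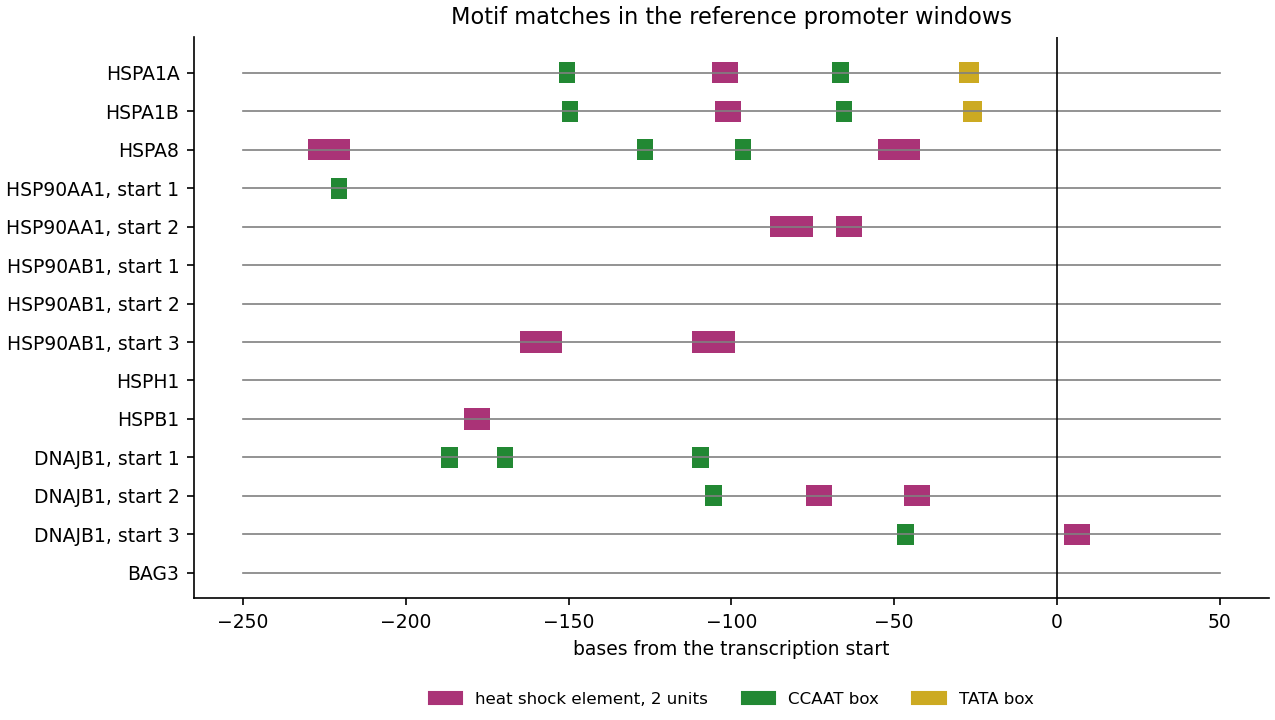
Matches to the heat shock pair, CCAAT and TATAAA in each reference window, by distance in bases from the transcription start, with 1 line for each window. Pairs are drawn for 7 genes, and HSPA1A and HSPA1B share the order and spacing of all their matches, with a shift of 1 base in distance from the start.

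No gene of the 10 was called between the groups. At an adjusted p below 0.05 in edgeR's quasi-likelihood test, 0 of 10 were called, where 8.29% of the 16555 genes tested were called in either direction, 3.48% higher and 4.81% lower. With each library left out, 66 to 1428 of all genes were higher and 240 to 1786 lower, against 576 and 796 with all 6. DESeq2, limma-voom and limma-trend on FPKM called 0 as well. Over all genes DESeq2 called 934 higher and 1106 lower, and limma-voom 565 and 775. The counts of limma-trend over all genes were 634 and 771 on FPKM plus 0.1, and 661 and 760 on FPKM plus 1. At an unadjusted p below 0.05, 1 gene (DNAJB1) passed in edgeR, DESeq2 and limma-voom and 2 (DNAJB1 and HSF1) in limma-trend, and the share of all genes was 25.4% in edgeR. A further demand of a 2-fold difference could add no member to a count of 0 and was met by 2.51% of all genes. Estimates were lower for 8 genes and higher for 2 (DNAJB1 and HSP90AA1), with a median log2 fold change of -0.057 against -0.0084 for all genes. The signs of HSPA8 and HSP90AA1 changed with the scaling. Leaving out single libraries also changed the signs of HSPA1A, HSPB1 and HSP90AB1. The 95% intervals of all 10 lay inside a 2-fold change either way, as did those of 79.5% of all genes tested. The 10 genes took 0.7847%, 0.741% and 0.7673% of the counted reads in control replicates 1, 2 and 3 and 0.7195%, 0.7576% and 0.7626% in the libraries labelled TFAM-OE (exact permutation test, two-sided p = 0.4, where 0.1 is the smallest possible; adjusted p = 0.625 over 5 such measures).

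**Figure D3:**
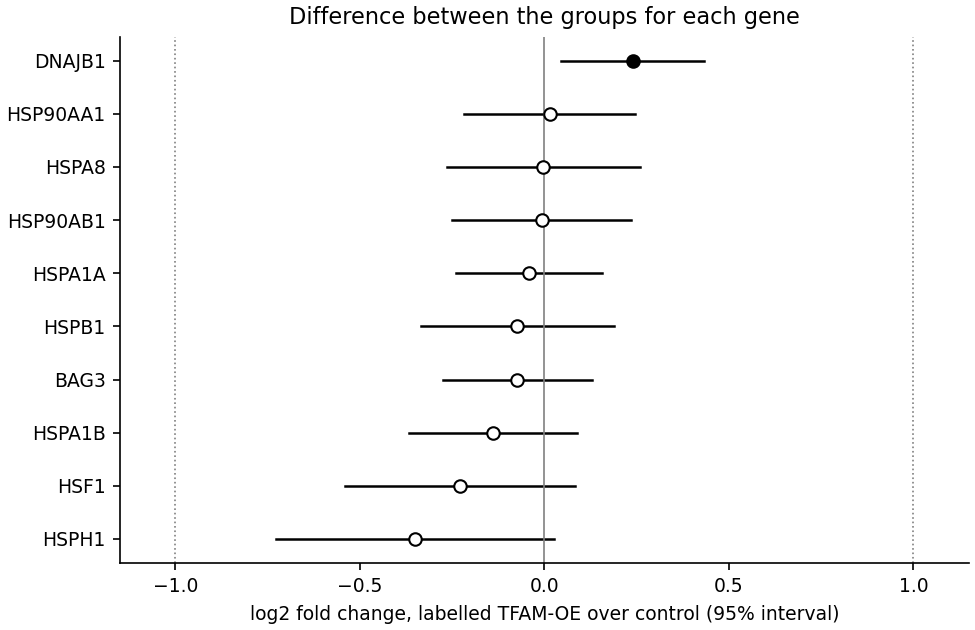
Log2 fold change of each gene, the libraries labelled TFAM-OE over the control, with its 95% interval from edgeR's quasi-likelihood fit; dotted lines mark a 2-fold change. The filled point is DNAJB1, whose groups did not overlap, and its interval from 0.046 to 0.43 is the one that leaves out 0; the signs of HSPA8 and HSP90AA1 changed with the scaling.

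DNAJB1 encodes an inducible J-domain protein that delivers substrates to HSP70 and stimulates its ATPase. In GRCh38, DNAJB1 (ENSG00000132002.7) spans 14514769 to 14560391 on the minus strand of chromosome 19, with 3 exons. Its normalised read count was 172.0, 168.7 and 183.7 CPM in control replicates 1, 2 and 3 and 209.1, 204.6 and 205.2 CPM in the libraries labelled TFAM-OE. Every library labelled TFAM-OE was above every control library, and it was the 1 gene of the 10 whose groups did not overlap, where 31.7% of all genes tested showed such a separation. The fold change was 1.18 with a 95% interval from 1.03 to 1.35 (log2 fold change 0.24, standard error 0.087, unadjusted p = 0.020, adjusted p = 0.118 in edgeR's test), so the difference failed the adjustment over all genes. Over all alternatives the adjusted p ran from 0.072 to 0.335. DNAJB1 also had the smallest spread within groups, with an SD of 0.047 on the log2 CPM scale, and 4.44% of the 3041 genes at least as abundant as the lowest of the 10 had a smaller one.

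HSPH1, the cytosolic HSP110 that acts as a nucleotide exchange factor for HSP70, had the lowest estimate and the widest spread. In GRCh38, HSPH1 (ENSG00000120694.19) spans 31134973 to 31162388 on the minus strand of chromosome 13, with 18 exons. It had 162.4, 140.3 and 132.2 CPM in control replicates 1, 2 and 3 and 84.1, 116.2 and 141.1 CPM in the libraries labelled TFAM-OE. TFAM-OE replicate 3 lay among the control values, whereas replicates 1 and 2 lay below all of them. The log2 fold change was -0.35 (standard error 0.17, 95% interval from -0.73 to 0.027, adjusted p = 0.227 in edgeR's test). Without TFAM-OE replicate 3 the log2 fold change was -0.53 and HSPH1 was called lower (adjusted p = 0.017 by edgeR), and over leaving out each library in turn the log2 fold change ran from -0.53 to -0.17. HSPH1 was also called lower (log2 fold change -0.34, adjusted p = 0.047 by edgeR) when genes with few reads were kept in the test, a setting that fitted a common spread to genes of like abundance. Over all alternatives its adjusted p ran from 0.017 to 0.567. Its SD within groups was 0.287 on the log2 CPM scale, and 95.2% of the 3041 genes had a smaller one.

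The inducible HSP70 is encoded by HSPA1A and HSPA1B, neighbouring genes of 1 exon each on chromosome 6 (ENSG00000204389.9, 31815543 to 31817946, and ENSG00000204388.6, 31827738 to 31830254, plus strand). HSPA1A had 129.3, 125.4 and 121.5 CPM in the control libraries and 126.3, 124.3 and 115.2 CPM in the libraries labelled TFAM-OE. HSPA1B had 74.36, 68.03 and 66.5 CPM and 64.25, 67.82 and 57.45 CPM in the same order. In both genes control replicate 1 was highest and TFAM-OE replicate 3 lowest, and the ranges of the groups overlapped. On the log2 scale HSPA1A differed by -0.041 with a standard error of 0.089 (edgeR, adjusted p = 0.817) and HSPA1B by -0.14 with one of 0.10 (edgeR, adjusted p = 0.421). The coding sequences were identical at 1922 of 1926 bases (99.8%), and 69.6% of the windows of 150 bases in the HSPA1A transcript, the read length used, also occurred in that of HSPA1B. A single read from these windows has no unique origin between the copies, although reads were paired and a mate in sequence of 1 copy can place it. The authors counted uniquely mapped reads and the share of pairs lost was not measured, so both levels are uncertain. With both summed to 1 gene, the log2 fold change was -0.075. HSPA8 shared 73.3% of coding bases with HSPA1A, and 0 such windows.

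HSPA8, whose protein folds new polypeptides and uncoats clathrin vesicles, had 2720, 2520 and 2819 CPM in the control libraries and 3009, 2674 and 2358 CPM in the libraries labelled TFAM-OE. Replicates 1 and 3 of the libraries labelled TFAM-OE were the highest and the lowest of all 6, and the controls lay between them. HSPA8 (ENSG00000109971.13) spans 123057489 to 123063230 on the minus strand of chromosome 11, with 9 exons. The difference was near 0 (log2 fold change -0.0033, positive with RLE or upper-quartile scaling, 95% interval from -0.26 to 0.26, adjusted p = 0.990 by edgeR). The FPKM of HSPA8 was 12.35, 12.05 and 13.87 times the summed FPKM of HSPA1A and HSPA1B in the control and 14.6, 12.87 and 12.63 times in the libraries labelled TFAM-OE. The groups overlapped in this ratio (exact permutation test, p = 0.5; adjusted p = 0.625 over 5 measures).

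HSP90AA1 and HSP90AB1 encode the stress-inducible and the constitutive cytosolic HSP90, which hold kinases and steroid receptors in a form ready for activation. HSP90AA1 (ENSG00000080824.18) spans 102080742 to 102139699 on the minus strand of chromosome 14, with 11 exons. HSP90AB1 (ENSG00000096384.19) spans 44246166 to 44253888 on the plus strand of chromosome 6, with 12 exons. HSP90AA1 had 2140, 2066 and 2275 CPM in the control libraries and 2001, 2323 and 2221 CPM in the libraries labelled TFAM-OE. HSP90AB1 had 1367, 1379 and 1339 CPM in the control and 1203, 1347 and 1514 CPM in the libraries labelled TFAM-OE. The 3 control values of HSP90AB1 lay close together and inside the range of the other group. Log2 fold changes were 0.014 for HSP90AA1 (negative without scaling factors, 95% interval from -0.22 to 0.25, adjusted p = 0.950 by edgeR) and -0.0078 for HSP90AB1 (95% interval from -0.25 to 0.23, adjusted p = 0.975 by edgeR). HSP90AA1 exceeded HSP90AB1 in FPKM in each library, 1.159, 1.109 and 1.257 times in the control and 1.231, 1.276 and 1.085 times in the libraries labelled TFAM-OE (exact permutation test, p = 0.9 for the groups; adjusted p = 0.9 over 5 measures). The coding sequences of the pair were identical at 75.2% of aligned bases, with 0 shared windows of 150 bases.

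HSPB1, also named HSP27, is a small heat shock protein that holds unfolded proteins without ATP and binds actin. In GRCh38, HSPB1 (ENSG00000106211.8) spans 76302673 to 76304295 on the plus strand of chromosome 7, with 3 exons. It had 509.6, 576.4 and 555.3 CPM in the control libraries and 569.9, 550.7 and 439.2 CPM in the libraries labelled TFAM-OE. TFAM-OE replicate 3 was the lowest of the 6, and the other libraries of both groups were intermixed (log2 fold change -0.073, standard error 0.12, adjusted p = 0.740 by edgeR). BAG3, a nucleotide exchange factor of HSP70 that links it to small heat shock proteins and autophagy, had 152.5, 150.7 and 141.3 CPM in the control and 140.6, 148.7 and 133.0 CPM in the libraries labelled TFAM-OE. BAG3 (ENSG00000151929.9) spans 119651380 to 119677819 on the plus strand of chromosome 10, with 4 exons. Its groups overlapped as well (log2 fold change -0.074, standard error 0.091, adjusted p = 0.655 by edgeR).

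HSF1 (ENSG00000185122.10), the main transcription factor of the heat shock response, lies on chromosome 8 from 144291591 to 144314720 on the plus strand. It had 151.9, 181.2 and 181.6 CPM in the control libraries and 172.6, 148.2 and 118.4 CPM in the libraries labelled TFAM-OE. TFAM-OE replicates 2 and 3 were below all controls and replicate 1 was among them. The log2 fold change was -0.23 (standard error 0.14, 95% interval from -0.54 to 0.084, adjusted p = 0.339 by edgeR). It was -0.36 without TFAM-OE replicate 1 (adjusted p = 0.087) and -0.090 without TFAM-OE replicate 3 (adjusted p = 0.598), and over all alternatives the adjusted p was between 0.087 and 0.619. Its mRNA level does not measure the activity of the protein, which is regulated after translation.

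**Figure D4:**
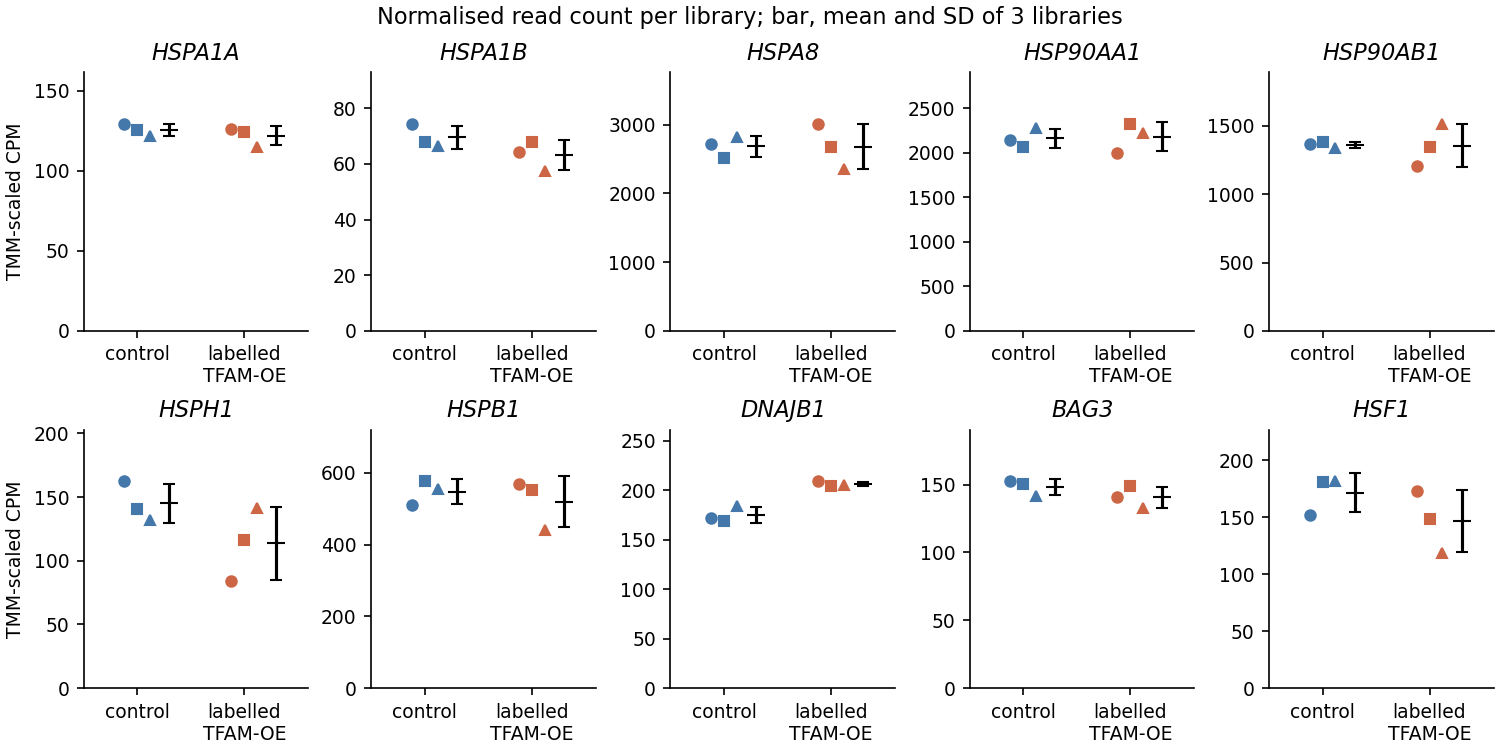
TMM-scaled CPM of each gene by library, control and labelled TFAM-OE, each panel from 0 with its own scale; circles, squares and triangles are replicates 1, 2 and 3, and bars give the mean and SD. DNAJB1 is the panel in which the groups are apart, and HSPH1 has the widest relative scatter among the libraries labelled TFAM-OE.

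TFAM-OE replicate 1 had the lowest HSPH1, HSP90AA1 and HSP90AB1 and the highest HSPA8 and DNAJB1 of the 6 libraries. TFAM-OE replicate 3 had the lowest HSPA1A, HSPA1B, HSPA8, HSPB1, BAG3 and HSF1 and the highest HSP90AB1. The SD of log2 CPM was larger in the libraries labelled TFAM-OE than in the control for 9 of the 10 genes, and smaller for DNAJB1 (0.01717 against 0.06386). It was also larger in the libraries labelled TFAM-OE for 70.6% of the 3041 genes at least as abundant as the lowest of the 10. The SD was 0.3755 for HSPH1, 0.2728 for HSF1 and 0.204 for HSPB1 in the libraries labelled TFAM-OE, the widest of the 10, against 0.1525, 0.1473 and 0.091 in the control. This difference in spread was not tested. Against the median SD within groups of 0.1325 over these 3041 genes, 6 of the 10 genes had a smaller SD and 4 a larger one. The cultures are labelled as replicates. The p-values of edgeR set each difference against the spread between these 3 and 3 libraries, drawn toward the spread of other genes.

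Other genes of the cytosolic chaperone network were counted in 7 lists by role, 80 genes outside the 10, of which 70 were tested. Called higher were 2 and lower 2, or 5.71% of those tested, beside 8.29% of all genes, a difference that was not tested. Without control replicate 3, 3 were higher and 3 lower, beside 482 and 748 of all genes. The median log2 fold change of the 70 was 0.016 against -0.0084 for all genes. The groups did not overlap in 20 of the 70 (28.6%), near the 31.7% of all genes. Of the 20, 9 were J-domain proteins, or 60% of the 15 tested. In that list 40% passed an unadjusted p below 0.05 in edgeR, beside 25.4% of all genes, and the difference was not tested. DNAJC9, a histone chaperone with a J-domain, rose from 59.6, 62.3 and 68.7 CPM in the control to 86.0, 86.1 and 82.4 CPM (log2 fold change 0.42, adjusted p = 0.028 by edgeR). PFDN6, a subunit of the prefoldin that passes new actin and tubulin to the chaperonin, rose from 32.9, 36.0 and 43.4 CPM to 59.8, 59.3 and 47.9 CPM (log2 fold change 0.57, adjusted p = 0.031 by edgeR). DNAJB4, a J-domain protein close to DNAJB1, fell from 39.8, 32.8 and 28.6 CPM to 19.0, 21.8 and 22.5 CPM (log2 fold change -0.68, adjusted p = 0.020 by edgeR). These 3 genes and HSPA6 were among the 20. HSPA6, a strictly inducible HSP70, fell from 2.65, 2.839 and 2.21 CPM to 1.412, 1.541 and 1.699 CPM, a mean level of 0.74 FPKM (log2 fold change -0.72, adjusted p = 0.048 by edgeR). It was called in 8 of 16 alternatives, and not by limma-voom, with library size alone, by limma-trend on FPKM plus 0.1 or without TFAM-OE replicate 1. None of the 4 calls held without control replicate 1, without control replicate 2 or without TFAM-OE replicate 2. There 0 genes of the 7 lists were called, beside 66 to 90 of all genes higher and 240 to 262 lower. Without TFAM-OE replicate 3, 5 were higher and 7 lower, beside 1428 and 1786 of all genes. Without TFAM-OE replicate 1, 3 were higher and 4 lower, beside 753 and 1001. DESeq2 called 3 genes of the lists higher and 5 lower, beside 934 and 1106 of all genes. By limma-voom the counts were 2 and 1, beside 565 and 775.

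By role, the HSP70 and HSP110 relatives had 0 higher and 1 lower of 8 tested (most abundant, HSPA4 at 33.3 FPKM), and the J-domain proteins 1 higher and 1 lower of 15 (DNAJA1 at 134.8 FPKM). Of the nucleotide exchange factors and BAG proteins, 0 of 6 were called (HSPBP1 at 74.8 FPKM). The same held for the HSP90 co-chaperones with 0 of 18 (PTGES3 at 220.1 FPKM), the small heat shock proteins with 0 of 3 (HSPB8 at 8.78 FPKM) and the heat shock factors and their regulators with 0 of 6 (IER5 at 40.1 FPKM). At an unadjusted p below 0.05 in edgeR, 24.3% of the 70 genes passed, against 25.4% of all genes: of the lists with no call, 2 genes passed among the exchange factors, 2 among the co-chaperones, 2 among the small heat shock proteins and 1 among the heat shock factors. DESeq2 called 1 higher and 1 lower of the small heat shock proteins and 1 lower of the heat shock factors, limma-trend 1 lower of the heat shock factors, and limma-voom 0 in these lists. In the chaperonin TRiC and prefoldin, which fold actin and tubulin, 1 of 14 genes was higher and 0 lower (CCT7 at 363.2 FPKM). Among 24 tested heat-inducible genes outside the 10, a list that overlaps the others, 0 were higher and 2 lower, DNAJB4 and HSPA6. These were 8.33% of the list, where 8.29% of all genes were called in either direction and 4.81% lower. The median log2 fold change of the list was -0.070 against -0.0084 for all genes, and UBB was the most abundant at 621.6 FPKM. The lower count of this list was 4 by DESeq2 and with no filter on low counts, beside 1106 and 1485 of all genes. It was 3 by limma-trend on FPKM plus 1 and 1 by limma-voom, beside 760 and 775. The chaperones of the endoplasmic reticulum and mitochondria had 1 of 10 lower, DNAJB9 (log2 fold change -0.62, adjusted p = 0.047 by edgeR). This was 10% of the list, again beside 8.29% of all genes in either direction and 4.81% lower. HSPD1 was the most abundant of the list at 301.8 FPKM. DNAJB9 was called in 8 of 16 alternatives. Among the others, it was not called by limma-voom (adjusted p = 0.054) or limma-trend, with library size alone, or without control replicate 1, control replicate 2 or TFAM-OE replicate 2, and its adjusted p ran from 0.00062 to 0.202 over all alternatives. DESeq2 and limma-trend called 1 gene of this list higher.

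**Figure D5:**
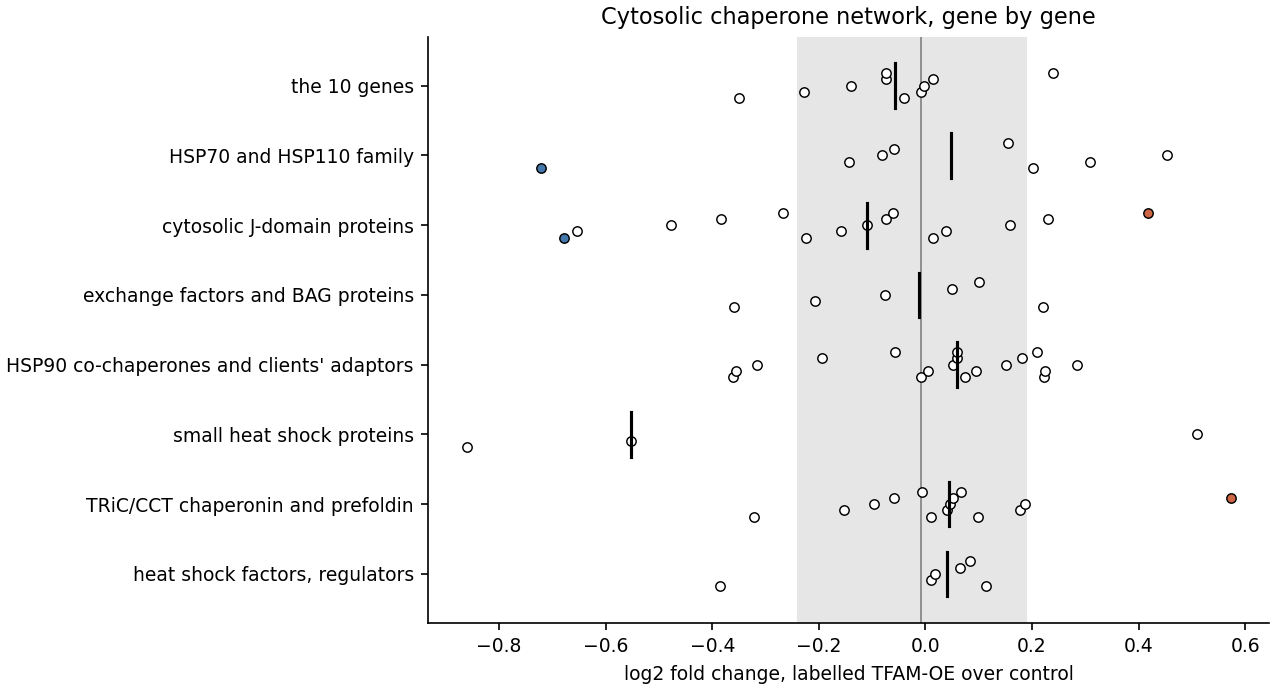
Log2 fold change of each tested gene in the 7 lists and of the 10 genes, the libraries labelled TFAM-OE over the control; short bars are medians, the grey band spans the quartiles of all 16555 genes, and filled points were called. The 10 genes have 0 filled points, and the lists hold 2 higher and 2 lower.

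Pseudogenes of the 10 genes took few reads. Of 9 with a row, 7 had fewer than 5 reads over the 6 libraries. HSP90AA2P, the most abundant at 1.21 FPKM, was counted 110, 72 and 133 times in the control and 82, 114 and 102 times in the other group, where HSP90AA1 had between 55314 and 84419 in a library. Its groups overlapped (log2 fold change -0.081, adjusted p = 0.825 by edgeR). HSPB1P2 followed at 0.48 FPKM, and HSP90AB4P and HSPA8P15 tied at 0.012 FPKM.

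Markers of other cell types were low. Summed over the 4 fibroblast markers with an FPKM, the level was between 0.37 and 0.70 FPKM in a library, led by COL1A1 at 0.503 FPKM, and over 4 endothelial markers between 0.01 and 0.08 FPKM, led by KDR at 0.020 FPKM. The 3 immune markers with an FPKM summed to 1.42, 1.67 and 1.42 FPKM in the control and 0.71, 0.81 and 0.49 FPKM in the libraries labelled TFAM-OE. This sum was led by CD68, a lysosomal protein of macrophages that other cells also make, which was lower (log2 fold change -1.21, adjusted p = 0.015 by edgeR; not called without control replicate 1, at 0.062, or control replicate 2, at 0.083), while PTPRC, which defines leukocytes, had 0 reads in 5 libraries and 1 read in TFAM-OE replicate 3. Their part in the values of the heat shock genes was not tested.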

How the data were processed

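Polyadenylated RNA of 6 A549 libraries had been made with a stranded kit and sequenced. After trimming and alignment (TopHat2, GRCh38), the authors deposited a count of uniquely mapped reads for each gene and library. The authors calculated the deposited FPKM from those reads. The sources used here do not give the counting program, the annotation or whether strand was used.

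Libraries were grouped by their labels, without pairing. Counts of the 16555 genes kept by filterByExpr were scaled by TMM and tested in R (4.3.3) by edgeR (4.0.16, quasi-likelihood, two-sided), with p-values adjusted by Benjamini-Hochberg over all genes kept and a call at an adjusted p below 0.05. The filter was chosen with results of a fit to every gene with a read known. That fit, also run, gave all genes of like abundance a common spread (prior degrees of freedom infinite, against 5.98 with the filter). Standard errors and 95% intervals come from the same fit, and 0.5 was added to CPM before logs were taken for SDs. FPKM served for levels between genes. Ratios and shares of reads were compared with an exact permutation test in scipy (1.17.1). The edgeR steps were tested on simulated data.

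Members and lists were chosen with earlier results of these data known. Named are all 10 members, TFAM, and in each list the called genes with the smallest p (at most 3 in each direction) and the gene of highest mean FPKM. Also named are the 3 pseudogenes of highest mean FPKM and any tied with the lowest of them. The markers beyond these were named after their values were seen. DESeq2 (1.42.0) and limma (3.58.1, limma-voom, and limma-trend on log2 of FPKM plus 0.1 or 1), other scalings and filters, HSPA1A and HSPA1B summed, replicate number as a term and each library left out were the alternatives. Gene positions are from GENCODE, matched by gene ID, and promoter windows from RefSeq GRCh38.p14. A planned comparison of protein sequences was replaced by global alignments of coding sequences in Biopython (1.88), because no protein table was used here. Counts are reads without molecular identifiers, and the 3 libraries of a group set the precision. Python (3.11.15), numpy (2.4.6), pandas (2.3.3) and matplotlib (3.10.9) made the summaries and figures.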

Additional observations from a re-analysis of the deposited data

How the results depend on the processing

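Of 162 recomputed log2 fold changes of the 10 genes, 142 kept direction and side of the threshold, 2 passed it and 18 changed sign, and 14 of 16 alternatives called 0 of the 10. Without a filter on low counts, 1 was called lower (HSPH1), as without TFAM-OE replicate 3, and leaving out each library gave 0 to 1. Changes of sign were in genes near 0, and none of them was called. HSPA8 was 0.0030 with RLE scaling, 0.0031 with upper-quartile scaling, 0.0019 with no filter and 0.0030 by DESeq2, and from -0.093 to 0.088 with each library left out. HSP90AA1 was -0.0051 with library size alone, -0.011 by limma-trend on FPKM plus 0.1 and -0.011 on FPKM plus 1, and from -0.031 to 0.074 with each library left out. Leaving out each library gave HSP90AB1 from -0.089 to 0.073, HSPA1A from -0.065 to 0.0056, HSPB1 from -0.14 to 0.041, and, with no change of sign, HSF1 from -0.36 to -0.090, HSPA1B from -0.19 to -0.070 and BAG3 from -0.11 to -0.028. DNAJB1 lay between 0.21 and 0.28, with adjusted p from 0.072 to 0.335, and HSPH1 had adjusted p from 0.017 to 0.567. Over the whole table, 576 genes were higher and 796 lower. These counts were 1034 and 1485 with no filter, 934 higher by DESeq2, 74 and 342 with the 2-fold demand, and 66 to 1428 higher and 240 to 1786 lower with each library left out. Chaperone network calls, 2 higher and 2 lower, were 4 and 6 with no filter, 5 lower by DESeq2, 1 lower by limma-voom, and 0 to 5 higher and 0 to 7 lower with each library left out. Same-numbered libraries deviated from their group means with correlations of -0.22, 0.0077 and -0.27, and differently numbered ones from -0.039 to 0.25. These values show no shift shared by number. They cannot show whether same-numbered cultures were handled together, since deviations within a group of 3 libraries constrain each other. With a replicate block, 74 genes were higher and 285 lower, 0 and 0 of the network, and 0 of the 10 genes, and DNAJB9 was not called (adjusted p = 0.117). The cause of these changes was not tested. The 10 genes had at least 1724 reads in every library.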
